A study of Drosophila melanogaster with 15 samples.

Results

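The genes described here code for the classical axon guidance cues and receptors of Drosophila: the semaphorins Sema1a, Sema1b and Sema2a, the plexins PlexA and PlexB, the Robo receptors robo1 and robo2, Slit (sli) and the netrins NetA and NetB. Genes were taken where the array's annotation gave a probe set with their symbol alone, and the probe set with the highest mean stood for a gene with several. That was the case for 5 of the 10 genes, namely Sema1a, NetB, sli, PlexB and robo1, out of 11982 genes with such a probe set. Sema1b, Sema2a, PlexA, robo2 and NetA are not analysed here. A gene was tested when its log2 value reached 4 on at least 3 arrays, which 4 of the 5 genes did, among 6973 genes in all; sli stayed under that level on every array.

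Larval brains and imaginal discs were dissected at the wandering stage of the 3rd instar, and their RNA was hybridised to the Affymetrix Drosophila Genome 2.0 array. There were 3 arrays for each of 5 strains. The altered strains were DSas-4 mutants and DSas-6 mutants, both labelled as having cells without centrioles, and a strain overexpressing Sak (SakOE), labelled as having too many centrosomes. The references were the wild types w67, whose genotype label reads white, and OregonR. Each sample pooled tissue of 10 larvae kept at 25 °C, and the labels call the samples of a strain biological replicates. The alleles of the mutants and the promoter driving Sak are not stated in the labels. The study set each altered strain against both wild types.

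Growing axons are steered by extracellular cues that attract or repel the growth cone. Semaphorins signal through plexins, Slit through the Robo receptors, and netrins through Frazzled and Unc5. Sema1a spans the membrane and can also act as a receptor, whereas Slit and the netrins are secreted. In the late larva these systems guide photoreceptor axons from the eye disc into the optic lobe and pattern the neuropils of the brain, and several of the same proteins act on cell movement and adhesion in other tissues.

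The values are the deposited log2 expression values, and differences are given on that scale. Values of different probe sets cannot be ranked against each other, so levels were compared between strains within a gene. A gene was called in an altered strain when limma's test, adjusted over the 6973 tested genes, passed 0.05 in the same direction relative to each wild type. Replicates correlated at r between 0.988 and 0.997. The floor of the arrays had 4 distinct values, the same within a strain and shared by DSas-4 and w67, which looks like 4 separate normalization runs. Outside DSas-4 against w67, run and strain cannot be told apart. The mutated genes were low in their own strains. Sas-4 averaged 4.84 ± 0.23 in DSas-4, against 7.62 ± 0.17 in w67 and 7.68 ± 0.09 in OregonR. Sas-6 averaged 3.21 ± 0.09 in DSas-6, against 7.73 ± 0.09 in w67 and 7.65 ± 0.05 in OregonR (SD, n = 3 each). SAK was 7.53 ± 0.04 on the arrays labelled SakOE, against 7.84 ± 0.11 in w67 and 7.51 ± 0.11 in OregonR, so its probe set shows no excess that would bear out the label. The pooled tissue showed its defining markers, since all 5 neuronal, 4 glial, 6 neuroblast and 9 imaginal disc markers with a probe set passed the filter. All 3 muscle and all 5 salivary gland markers with a probe set stayed under 4 on every array. Markers of other tissues did pass the filter, namely all 3 of fat body and all 5 of trachea and cuticle. So did 4 of 5 haemocyte markers and 1 of 7 gut markers. In tissue of this mixture, fewer cells of a type and less RNA per cell cannot be told apart.

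The guidance genes fell into a pair that differed between the strains, the semaphorin Sema1a and the netrin NetB, and a pair of receptors, PlexB and robo1, that differed little. In DSas-6, 2 of the 4 tested genes, Sema1a and NetB, were called and both were higher. Over all tested genes, 6.15% were called in DSas-6 and 2.14% were called higher. None of the 4 was called in DSas-4 or in SakOE, where 3.3% and 10.7% of all tested genes were called. At an unadjusted p under 0.05 against both wild types, the count was 0 in DSas-4, 3 in DSas-6 (Sema1a, NetB and robo1) and 2 in SakOE (NetB and robo1). The share of all tested genes passing unadjusted was not counted. The unadjusted counts here and below therefore have no background to be read against. The median difference of the 4 genes in DSas-6 was 0.42 from w67 and 0.44 from OregonR, beside -0.08 and 0.01 over all tested genes. That median falls in the gap between the pair that rose and the receptor pair, so it describes neither. The 5 strain means of Sema1a spanned 1.69, and 1.32% of tested genes spanned more. Those of NetB spanned 0.84, with 6.78% spanning more, while PlexB spanned 0.20 and robo1 0.12, less than the median gene at 0.28.

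**Figure D1:**
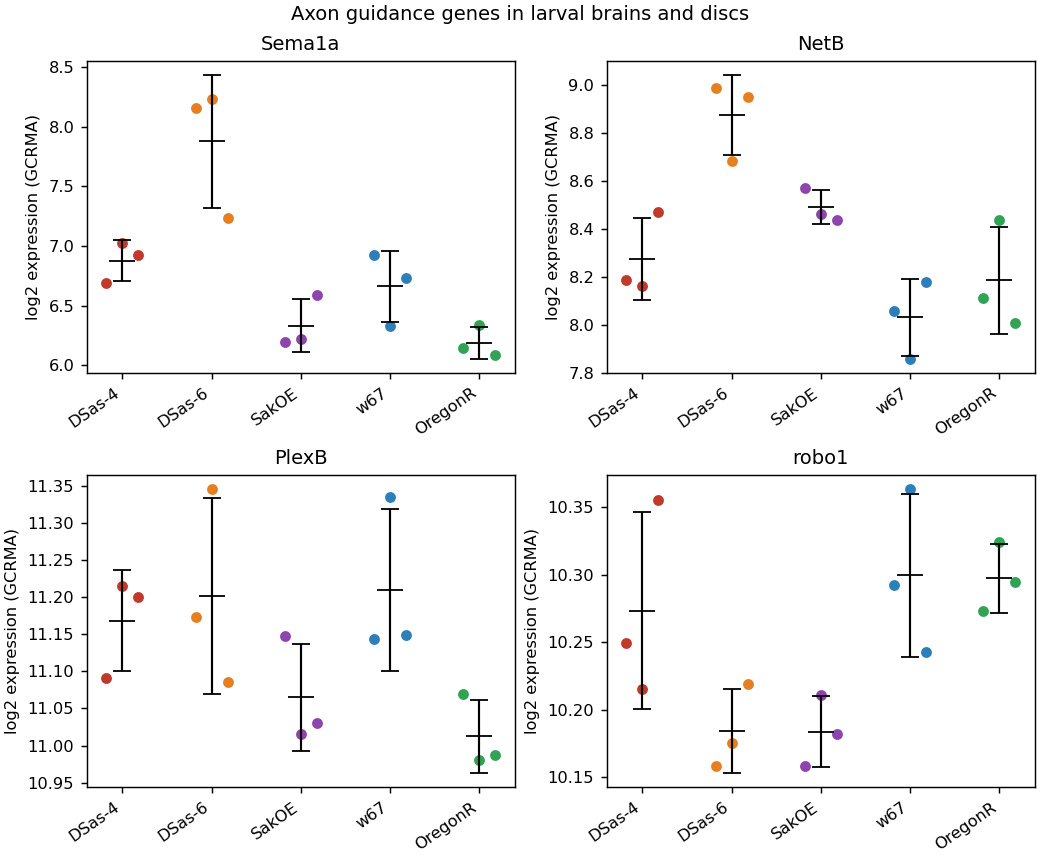
Log2 expression of Sema1a, NetB, PlexB and robo1 (vertical axes, each with its own range) on all 15 arrays by strain. Points are arrays, and horizontal ticks mark the mean and 1 SD on either side (n = 3); the DSas-6 arrays of Sema1a and NetB lie above all 6 wild-type arrays.

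Among the ligands, the transmembrane semaphorin Sema1a (chromosome arm 2L, probe set 1634588_at) was highest in DSas-6. Its log2 values were 8.16, 8.23 and 7.24 in the DSas-6 arrays, against 6.92, 6.33 and 6.73 in w67 and 6.15, 6.34 and 6.08 in OregonR. Every DSas-6 array lay above every wild-type array, as was the case for 5.08% of all tested genes. Replicate 3 of DSas-6 stood about 1 log2 unit below the others but stayed above the highest wild-type array. Sema1a thus rose in DSas-6, by 1.21 ± 0.23 (SE) relative to w67 (2.32-fold, 95% confidence interval 1.65 to 3.27, adjusted p = 0.00322) and by 1.69 ± 0.23 relative to OregonR (3.22-fold, interval 2.28 to 4.53, adjusted p = 0.000418). Leaving out replicate 3 gave 1.53 relative to w67 and 2.01 relative to OregonR. On that array the log2 difference between the 3′ and the 5′ control probe sets of actin, a measure of how far along the transcript the labelled RNA reaches, was 0.38, against 0.47 and 0.52 on the other DSas-6 arrays and 0.33 to 0.51 elsewhere. For GAPDH the same difference was 0.478 on that array, the lowest of the 15 arrays. It was 0.575 and 0.561 on the other DSas-6 arrays and 0.480 to 0.613 elsewhere. The part of these control differences in the low value was not tested.

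In the other altered strains Sema1a lay close to the wild types. DSas-4 had 6.69, 7.03 and 6.92, overlapping w67 and above OregonR. The difference was 0.22 relative to w67 (interval -0.28 to 0.71, adjusted p = 0.701) and 0.69 relative to OregonR (1.61-fold, adjusted p = 0.0432). In that single comparison 20.5% of all tested genes were higher in DSas-4, and the call on Sema1a was lost in 11 of 22 alternative settings, among them median centring of the arrays (0.60, adjusted p = 0.0926). SakOE had 6.20, 6.22 and 6.59, which overlapped both wild types. It differed by -0.33 from w67 (adjusted p = 0.281) and by 0.14 from OregonR (adjusted p = 0.713). The means ran from DSas-6 (7.88 ± 0.55) through DSas-4 (6.88 ± 0.17), w67 (6.66 ± 0.30) and SakOE (6.33 ± 0.22) to OregonR (6.19 ± 0.13; SD, n = 3 each). Of the steps between neighbours in that order, the step between DSas-6 and DSas-4 was the only one to pass the test.

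NetB, on the X chromosome with 1 protein-coding gene between it and NetA in the RefSeq annotation (Release 6), codes for a secreted netrin (probe set 1636954_at). Its log2 values were 8.99, 8.68 and 8.95 in DSas-6, against 8.06, 7.86 and 8.18 in w67 and 8.11, 8.44 and 8.01 in OregonR. All DSas-6 arrays lay above all wild-type arrays, with replicate 2 the lowest of the DSas-6 arrays. NetB rose in DSas-6 by 0.84 ± 0.12 (SE) relative to w67 (1.80-fold, interval 1.49 to 2.16, adjusted p = 0.000773) and by 0.69 ± 0.12 relative to OregonR (1.61-fold, interval 1.34 to 1.95, adjusted p = 0.00275). The calls on NetB and Sema1a in DSas-6 held in all 22 alternative settings. The highest adjusted p was 0.0165 for Sema1a and 0.0151 for NetB.

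NetB was also above the wild types on the SakOE arrays, at 8.57, 8.46 and 8.44, although the difference passed the test against w67 alone. The lowest SakOE array and the highest OregonR array were almost level, at 8.44 each, and 5.62% of all tested genes had all SakOE arrays above all wild-type arrays. The difference was 0.46 relative to w67 (1.37-fold, interval 1.14 to 1.66, adjusted p = 0.0149), in a comparison in which 4.57% of all tested genes were higher in SakOE. Relative to OregonR it was 0.31 (1.24-fold, interval 1.02 to 1.49, adjusted p = 0.114). The difference from w67 no longer passed in 1 of 22 alternative settings, and the difference from OregonR passed in 1 of 22. Without w67 replicate 2 the difference from w67 was 0.37 (adjusted p = 0.0597), and without OregonR replicate 2 the difference from OregonR was 0.43 (adjusted p = 0.0331).

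DSas-4 had NetB values of 8.19, 8.16 and 8.47, which overlapped those of OregonR and w67. It differed by 0.24 from w67 (interval -0.03 to 0.51, adjusted p = 0.341) and by 0.09 from OregonR (adjusted p = 0.635). The means ran from DSas-6 (8.88 ± 0.17) through SakOE (8.49 ± 0.07), DSas-4 (8.27 ± 0.17) and OregonR (8.18 ± 0.22) to w67 (8.03 ± 0.16; SD, n = 3 each). No step between neighbours in this order passed the test, the largest being that of SakOE relative to DSas-6 (-0.39, adjusted p = 0.0513). That step passed in 8 of 22 alternative settings, with an adjusted p as low as 0.0284 without DSas-6 replicate 2.

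**Figure D2:**
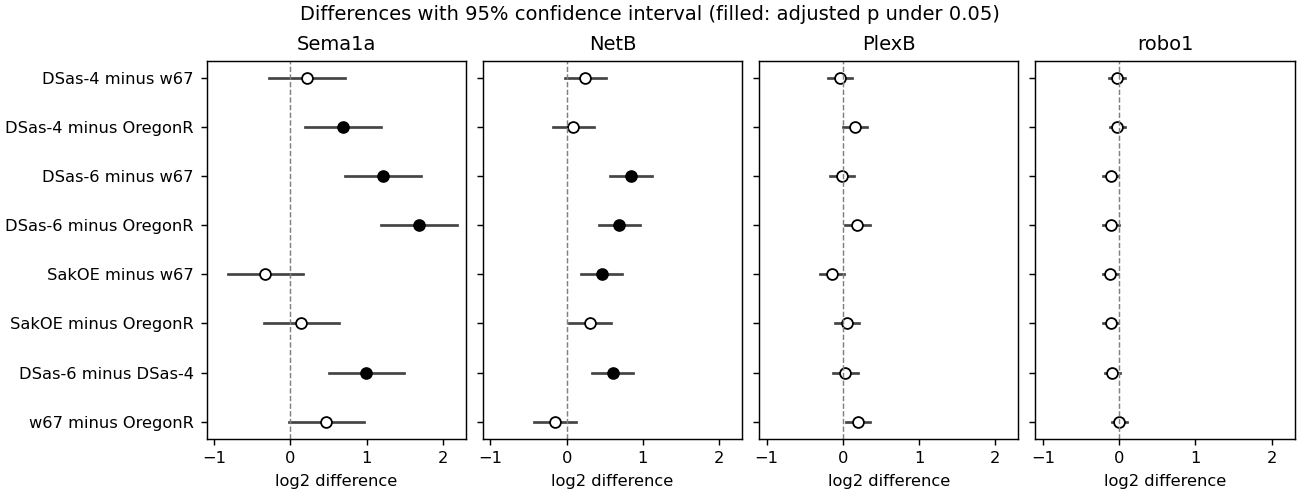
Log2 differences of Sema1a, NetB, PlexB and robo1 between each altered strain and w67 or OregonR, between DSas-6 and DSas-4, and between the wild types, with 95% confidence intervals from limma. The intervals of Sema1a and NetB in DSas-6 lie well above 0 against both wild types, whereas all intervals of PlexB and robo1 run from -0.30 to 0.36 at their widest.

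Both ligand genes differed between the mutants that are labelled as lacking centrioles. Sema1a was higher in DSas-6 than in DSas-4 by 1.00 (2.00-fold, interval 1.42 to 2.81, adjusted p = 0.00749). NetB was higher by 0.60 (1.52-fold, interval 1.26 to 1.83, adjusted p = 0.00435). In that comparison 4.93% of all tested genes were higher in DSas-6. With the fit restricted to these strains, Sema1a had an adjusted p of 0.0502 and NetB kept its call. Sema1a was also 2.91-fold lower in SakOE than in DSas-6 (difference -1.54, adjusted p = 0.000492), the 1 call among the 4 genes in a comparison with 9.79% of all tested genes lower in SakOE. Between SakOE and DSas-4 none of the 4 genes was called, although 34.2% of all tested genes were. Sema1a alone passed an unadjusted p of 0.05 there, at -0.54 (adjusted p = 0.0819), and all its SakOE arrays lay below all DSas-4 arrays.

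The third ligand gene, sli (arm 2R), codes for Slit, the midline repellent read by the Robo receptors. Its probe set with the highest mean held log2 values of 2.18 to 2.26 over the 15 arrays, at the bottom of the range of the arrays. Its other probe set stayed under 4 as well, so the arrays gave no usable level of sli in any strain.

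Among the receptors, PlexB codes for plexin B, through which secreted Sema2a and Sema2b signal in flies. The gene lies on chromosome 4 and had 4 probe sets of its own. The one with the highest mean (1626676_at) gave 11.09, 11.21 and 11.20 in DSas-4, 11.17, 11.35 and 11.09 in DSas-6 and 11.15, 11.02 and 11.03 in SakOE, against 11.14, 11.34 and 11.15 in w67 and 11.07, 10.98 and 10.99 in OregonR. The altered strains overlapped w67 throughout. Differences from w67 were -0.04 in DSas-4, -0.01 in DSas-6 and -0.14 in SakOE. Those from OregonR were 0.16, 0.19 and 0.05, and none of the 6 passed the test. PlexB was 0.20 higher in w67 than in OregonR (1.15-fold, adjusted p = 0.0845), with all w67 arrays above all OregonR arrays. None of the 4 genes was called between the wild types, where 15.7% of all tested genes were, and PlexB alone passed an unadjusted p of 0.05.

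The other PlexB probe sets did not all follow the brightest one. Probe set 1623432_s_at, whose suffix marks probes that may match other transcripts too, averaged 8.32 ± 0.05 on the SakOE arrays, against 8.67 in w67 and 8.57 in OregonR. All SakOE arrays lay below all wild-type arrays on it. With it in place of 1626676_at, the SakOE difference was -0.35 relative to w67 (adjusted p = 0.0116) and -0.25 relative to OregonR (adjusted p = 0.0781), where the brightest probe set gave 0.05 relative to OregonR. Averaging the probe sets that reached the filter gave -0.22 relative to w67 (adjusted p = 0.0123) and -0.12 relative to OregonR (adjusted p = 0.197). Probe set 1623145_s_at averaged between 5.34 in SakOE and 5.59 in DSas-6, with an SD of 0.42 in w67, and 1640702_at stayed under 4 on every array. The level of PlexB in SakOE therefore depends on the probe set, and neither choice gave a call against both wild types.

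**Figure D3:**
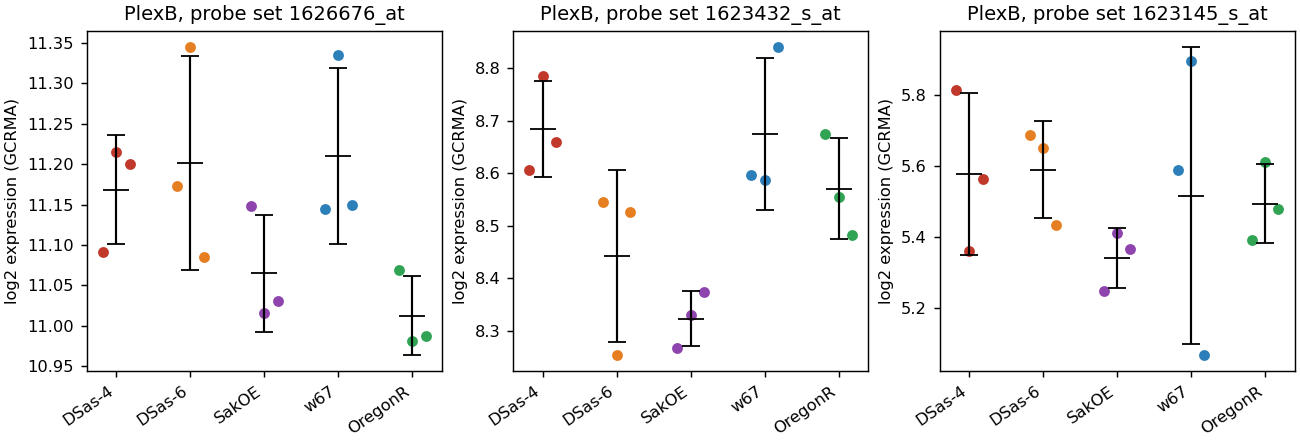
Log2 values of the 3 PlexB probe sets that reached the filter on the 15 arrays by strain, each panel with its own axis range; points are arrays, and horizontal ticks mark the mean and 1 SD on either side (n = 3). On 1623432_s_at the SakOE arrays lie below all wild-type arrays, which the brightest probe set, 1626676_at, does not show.

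The Slit receptor gene robo1 (arm 2R, probe set 1626774_s_at, whose suffix has the same meaning) varied least. Values were 10.25, 10.22 and 10.36 in DSas-4, 10.16, 10.18 and 10.22 in DSas-6 and 10.16, 10.21 and 10.18 in SakOE, against 10.29, 10.36 and 10.24 in w67 and 10.27, 10.32 and 10.29 in OregonR. All DSas-6 and all SakOE arrays lay below all wild-type arrays, while DSas-4 overlapped both wild types. Arrays all below were found for 12% of all tested genes in DSas-6 and for 17.8% in SakOE. The differences were small. DSas-6 differed by -0.12 from w67 (adjusted p = 0.104) and by -0.11 from OregonR (adjusted p = 0.141). Without the filter on dim probe sets, robo1 was called lower in DSas-6 against both wild types (adjusted p = 0.0316 and 0.0382). After quantile normalization its DSas-6 difference was -0.16 from OregonR (adjusted p = 0.0469) but -0.07 from w67 (adjusted p = 0.348). After median centring these differences were -0.14 (adjusted p = 0.0972) and -0.04 (adjusted p = 0.678). SakOE differed by -0.12 from w67 (adjusted p = 0.0775) and by -0.11 from OregonR (adjusted p = 0.123), and without the filter the difference from w67 passed (adjusted p = 0.0265). Centring the arrays on their medians, which moved the median SakOE difference of all genes from w67 by over 0.1, gave robo1 a SakOE difference from w67 of 0.0068. DSas-4 differed by -0.03 from w67 (adjusted p = 0.844) and by -0.02 from OregonR (adjusted p = 0.744), and w67 and OregonR had the same mean, 10.30.

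Markers of the dissected cell types were compared in DSas-6, where Sema1a and NetB rose and 6.15% of all tested genes were called. The mean log2 level of the 5 neuronal markers ranged from 9.38 to 9.68 over the DSas-6 arrays, against 9.16 to 9.38 in w67 and 9.31 to 9.57 in OregonR, and none of the 5 was called in DSas-6. Of the 4 glial markers none was called in DSas-6, and of the 6 neuroblast markers pros alone was called there, as higher. Of the 9 imaginal disc markers ey alone was called there, as lower. The 5 haemocyte markers had array means in DSas-6 of 4.18 to 4.46, against 5.21 to 5.52 in w67 and 4.70 to 4.97 in OregonR. None of them was called, and NimC1, a defining haemocyte marker, stayed under 4 everywhere. On the SakOE arrays 3 of the 6 neuroblast markers (ase, wor and pros) and 1 neuronal marker (Rdl) were called lower. So was 1 of the 5 trachea and cuticle markers (Cpr49Ah). Of all tested genes 7.24% were called lower in SakOE. In DSas-4 the glial marker repo was called lower and the fat body marker apolpp higher, as were 1.53% and 1.76% of all tested genes. The marker calls were not recomputed in the alternative settings. The part of these shifts in the guidance gene values was not tested. Of the 7 gut markers LManII alone passed the filter, with strain means of 8.48 to 9.40. The gut list had array means of 3.05 to 3.30, except for OregonR replicate 3 at 4.24. Leaving out that array changed none of the calls of Sema1a and NetB in DSas-6.

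The genes with the pattern most like Sema1a over the 15 arrays, by the root mean square difference of the values after each gene's own mean was subtracted, were Tet, Cow and nAChRalpha4. Tet codes for the fly homologue of the mammalian TET dioxygenases, Cow for a secreted carrier of Wingless, and nAChRalpha4 for a subunit of the nicotinic acetylcholine receptor. Their distances from Sema1a were 0.26, 0.34 and 0.34 log2 units, against 0.66 for the median gene and an SD of 0.67 for Sema1a itself. Each of the 3 was lowest in replicate 3 among the DSas-6 arrays, as Sema1a was. Tet had 8.54, 8.90 and 7.71 there, Cow 6.61, 6.17 and 5.24, and nAChRalpha4 6.26, 6.16 and 5.47. The 3 genes were picked for their likeness over arrays that include replicate 3, so sharing its low value follows in part from the choice. For NetB the closest genes were Abl (0.17), which codes for a tyrosine kinase, Sxl (0.17), the RNA-binding switch gene of sex determination, and drn (0.18), against 0.37 for the median gene and an SD of 0.33 for NetB itself. Abl averaged 5.88 in DSas-6, against 5.08 in w67 and 5.25 in OregonR. Sxl averaged 11.11 in DSas-6, against 10.57 in w67 and 10.43 in OregonR. These are descriptions over arrays that share strain and normalization, and carry no test.

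**Figure D4:**
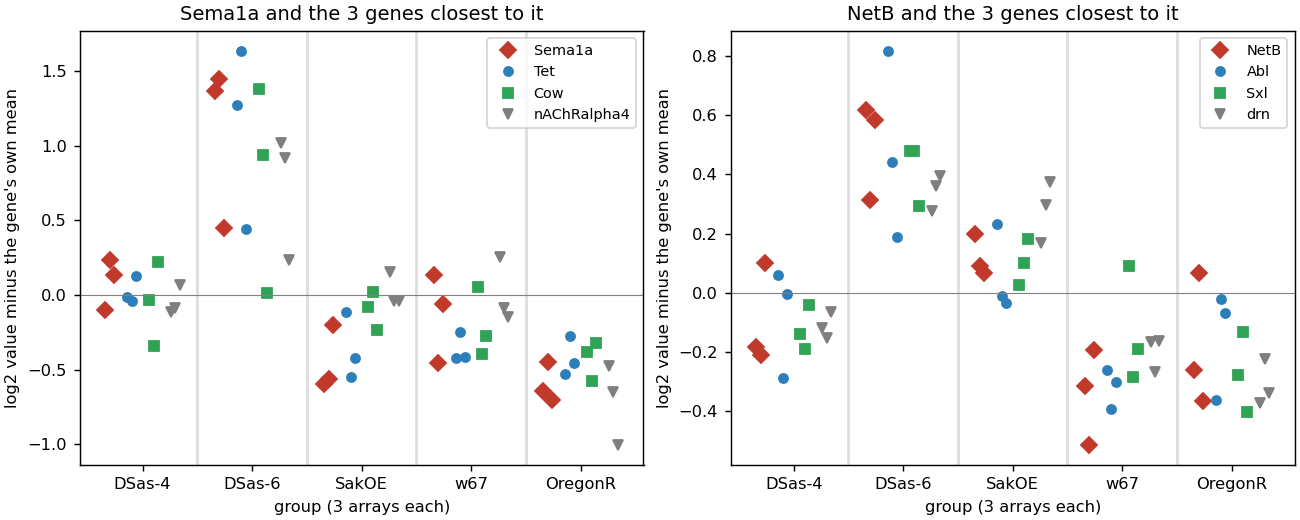
Log2 values minus each gene's own mean over the 15 arrays, for Sema1a with Tet, Cow and nAChRalpha4 (left) and for NetB with Abl, Sxl and drn (right), by strain with 3 arrays each. Replicate 3 of DSas-6 is the lowest DSas-6 point of Sema1a and of each of its 3 neighbours, which were picked on these same arrays.

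The pathways around these genes were followed in a list of 61 further guidance genes, of which 49 had a probe set of their own and 45 were tested. Against both wild types, 1 was higher and 1 lower in DSas-4 (4.44% called), 3 were higher and 2 lower in DSas-6 (11.1%), and 1 was higher and 2 lower in SakOE (6.67%). These shares stand beside the 3.3%, 6.15% and 10.7% of all tested genes given above. The median difference of the 45 genes was 0.02 relative to w67 and 0.15 relative to OregonR in DSas-4, -0.06 and 0.10 in DSas-6, and -0.09 and 0.02 in SakOE. Over all tested genes these medians were -0.01 and 0.08 in DSas-4, -0.08 and 0.01 in DSas-6, and -0.12 and -0.02 in SakOE.

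The netrin receptors fra, unc-5 and Dscam1 were all tested, and none was called in any altered strain. At an unadjusted p under 0.05 against both wild types, none passed in DSas-4 or DSas-6 and Dscam1 passed in SakOE. Against w67 alone, DSas-6 differed by -0.23 in Dscam1 (adjusted p = 0.0153) and by -0.16 in fra (adjusted p = 0.0471). In that comparison 18.4% of all tested genes were lower. Against OregonR the differences were 0.04 and -0.03 (adjusted p = 0.678 and 0.760). Dscam1 was also called lower in DSas-6 than in DSas-4 (-0.24), as were 20.1% of all tested genes. In SakOE it differed by -0.41 from w67 (adjusted p = 0.000255) and by -0.14 from OregonR (adjusted p = 0.109). Of all tested genes 28.1% were lower in SakOE than in w67. Dscam1 was called lower in SakOE than in DSas-4 (-0.43) and DSas-6 (-0.19), as were 28.2% and 9.79% of all tested genes. It also differed between the wild types, 0.27 higher in w67 than in OregonR, as were 13.8% of all tested genes. The other receptor genes did not follow it throughout. While unc-5 was lower in SakOE than in DSas-4 (-0.21), fra was higher in SakOE than in DSas-6 (0.21), as were 6.81% of all tested genes.

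Of the 9 tested genes of the Slit and Robo pathway, 2 were called in DSas-6, both higher, beside 2.14% of all tested genes called higher there. None was called in DSas-4 or SakOE, where 0 and 1 passed unadjusted. In DSas-6, 4 passed unadjusted. Besides the called Abl and ena these were Sdc, higher by 0.12 relative to w67 and 0.18 relative to OregonR, and chb, lower (-0.19 and -0.15). Both called genes act on actin downstream of Robo. Abl averaged 5.88 ± 0.31 in DSas-6, against 5.08 ± 0.07 in w67 and 5.25 ± 0.18 in OregonR (SD, n = 3 each). The smaller of its differences was 1.55-fold, relative to OregonR (adjusted p = 0.011), and it lost its call without OregonR replicate 1. Its partner ena, of the Ena/VASP family of actin regulators, averaged 10.33 ± 0.18 in DSas-6, against 9.86 ± 0.17 in w67 and 9.70 ± 0.20 in OregonR. The smaller difference of ena was 1.38-fold, relative to w67 (adjusted p = 0.017). Its call was lost without DSas-6 replicate 1 or 2 and without w67 replicate 2 or 3.

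Of the 5 tested genes of the semaphorin and plexin pathway, Sema2b, a secreted semaphorin, was lower in SakOE, and none was called in DSas-4 or DSas-6, where 1 passed unadjusted in each. Sema2b averaged 5.60 ± 0.27 in SakOE, against 6.13 ± 0.33 in w67 and 6.23 ± 0.19 in OregonR, a smaller difference of 1.44-fold. That call was lost in 8 of 22 alternative settings, including both rescalings of the arrays. In DSas-6, where Sema1a rose, the 5 genes had a median difference of -0.02 relative to w67 and 0.11 relative to OregonR.

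Among 22 other guidance receptors, ligands and adhesion genes, Dscam4, an immunoglobulin superfamily relative of Dscam1, fell in both DSas-6 and SakOE and kept those calls in all 22 alternative settings. It averaged 4.45 ± 0.15 in DSas-6 and 4.19 ± 0.12 in SakOE, against 5.14 ± 0.07 in w67 and 4.94 ± 0.09 in OregonR, which is close to the filter level. The smaller differences were 1.41-fold in DSas-6 and 1.69-fold in SakOE. These strains share their wild-type arrays. In DSas-4 it averaged 5.25 ± 0.02 and was not called.

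The remaining calls among the 22 were less stable. In DSas-6 the teneurin gene Ten-a was 1.18-fold higher and stan, which codes for a cadherin of planar cell polarity, was 1.15-fold lower, with calls lost in 10 and 13 of 22 alternative settings. In DSas-4 the receptor tyrosine phosphatase gene Ptp69D rose to 8.97 ± 0.06, against 8.34 ± 0.14 in w67 and 8.13 ± 0.31 in OregonR, a smaller difference of 1.54-fold, and the call was lost in 8 settings. On the SakOE arrays Ptp69D averaged 8.72 ± 0.27, with differences of 0.38 from w67 (adjusted p = 0.0612) and 0.59 from OregonR (adjusted p = 0.0135). It was called higher in SakOE too under both rescalings and without OregonR replicate 1. The gene caps, which codes for a leucine-rich repeat adhesion protein, was 1.27-fold lower in DSas-4, and its call was lost in 17 settings. Averaged over its probe sets, caps differed from w67 by 0.0099.

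Of 6 tested cytoskeletal effectors, the kinase gene Pak averaged 8.79 ± 0.04 in SakOE and was called higher there, against 8.52 ± 0.07 in w67 and 8.35 ± 0.15 in OregonR. The smaller difference was 1.21-fold, and the call was lost without SakOE replicate 1 and without w67 replicate 3. None of the 6 was called in DSas-4 or DSas-6, where none passed unadjusted either.

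**Figure D5:**
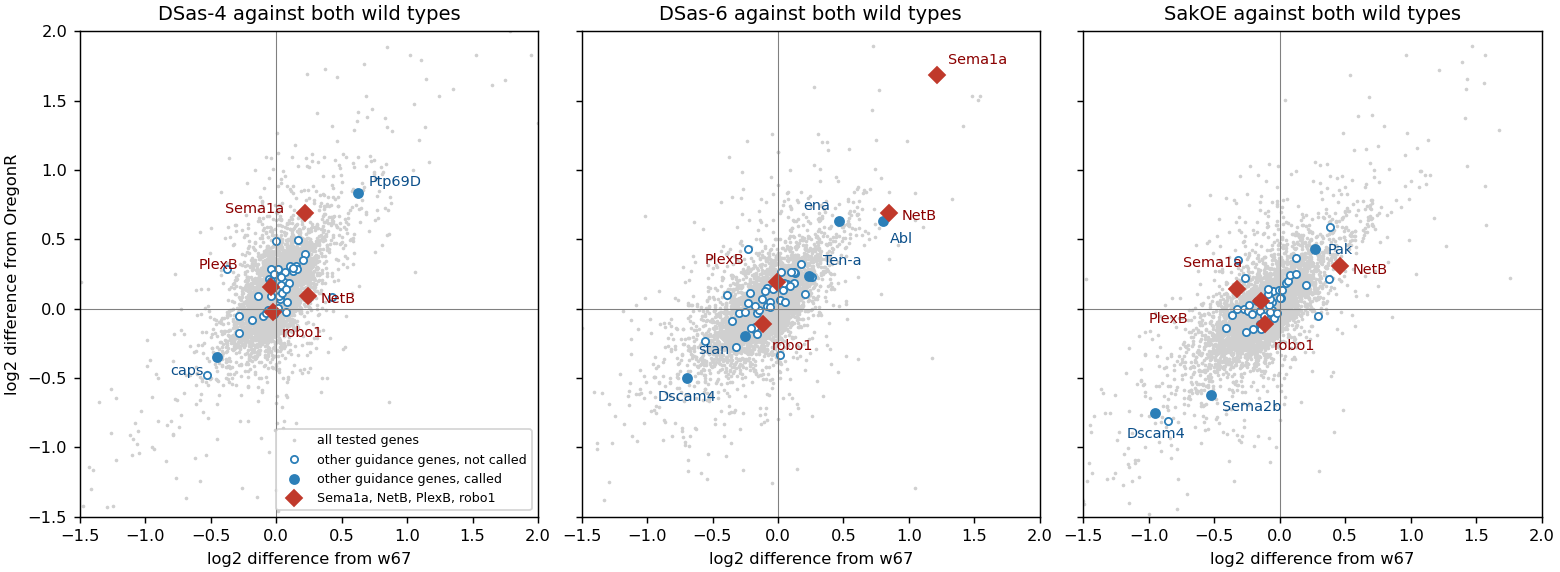
Log2 difference from w67 (horizontal) against that from OregonR (vertical) in DSas-4, DSas-6 and SakOE, with all tested genes as grey dots, 45 further guidance genes as circles (filled where called) and Sema1a, NetB, PlexB and robo1 as red diamonds. Sema1a and NetB stand at the upper right in DSas-6; between 14 and 42 genes per panel lie outside the axes and are not drawn.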

How the data were processed

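Deposited values of 15 arrays were used, 3 per strain. GCRMA and limma are the tools named in the submitters' processing notes, with no role or version given there. GCRMA corrects for background and combines probes into 1 value per probe set. The scale is not stated, and the range of the deposited values, 2.17 to 15.03, was read as log2 expression. Genes were named through GEO's platform annotation, and chromosomes came from RefSeq (Release 6). The number of arrays limits the precision.

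A model with 1 mean per strain over 15 arrays and 6973 genes was fitted by lmFit and eBayes of limma 3.58.1 (R 4.3.3) and tested on simulated data. Tests were two-sided, with Benjamini-Hochberg adjustment within each contrast. Smaller difference means the smaller of those from the 2 wild types. The genes, lists and rules for naming were chosen with earlier results of these data known: the 10 listed genes always, up to 4 called genes per list of further guidance genes, and the 3 genes closest to Sema1a and to NetB. The 22 alternatives were 2 rescalings, no filter, the mean of a gene's probe sets, a fit on the strains compared only, a variance trend, the replicate block, and each array left out in turn; for PlexB its other probe sets were used too.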

Additional observations from a re-analysis of the deposited data

Results flagged for a closer look

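The response of Sema1a relative to the wild types differed between the mutants labelled as lacking centrioles: it was 1.00 log2 units higher in DSas-6 than in DSas-4 (7.88 ± 0.55 in DSas-6 and 6.88 ± 0.17 in DSas-4, SD, n = 3 each; limma adjusted p = 0.00749). The response of NetB differed as well, by 0.60 (8.88 ± 0.17 in DSas-6 and 8.27 ± 0.17 in DSas-4; adjusted p = 0.00435). Every DSas-6 array lay above every DSas-4 array for both genes. The values of these strains look as if they came from separate normalization runs. With the arrays centred on their medians, and after quantile normalization, both calls held, but in a fit on these strains alone the adjusted p of Sema1a was 0.0502.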

How the results depend on the processing

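The 34 differences of Sema1a, NetB, PlexB and robo1 were recomputed 762 times, and 705 kept their direction and side of the threshold; 26 reversed, 13 passed no longer and 18 passed newly. The cause of these changes was not tested, except where fewer arrays or other probe sets are the change itself. Values that reversed were as follows. With arrays centred on their medians NetB was -0.0013 in DSas-4 relative to OregonR, PlexB 0.071 in DSas-6 relative to w67, robo1 0.0068 in SakOE relative to w67 and -0.099 in w67 relative to OregonR. After quantile normalization the first 2 were -0.0093 and 0.019 and the last was -0.084. With the mean of a gene's probe sets, PlexB was 0.0098 in DSas-4 relative to w67 and -0.12 in SakOE relative to OregonR, and caps, called lower in DSas-4, was 0.0099 in DSas-4 relative to w67. With probe set 1623145_s_at, PlexB was 0.062 in DSas-4 and 0.073 in DSas-6 relative to w67 and -0.15 in SakOE relative to OregonR. With 1623432_s_at it was 0.0089 in DSas-4 relative to w67, and -0.13 in DSas-6 and -0.25 in SakOE relative to OregonR. With 1 array left out, robo1 ranged from -0.067 to 0.0057 in DSas-4 relative to w67, from -0.065 to 0.0051 in DSas-4 relative to OregonR and from -0.030 to 0.030 in w67 relative to OregonR. NetB ranged from -0.0100 to 0.22 in DSas-4 relative to OregonR. PlexB ranged from -0.074 to 0.022 in DSas-4 and from -0.080 to 0.054 in DSas-6, both relative to w67. Counts of called genes, over the 4 tested genes and, without the filter, sli, changed as follows. DSas-6 against both wild types had 3 without the filter (robo1 in addition, lower). SakOE against both wild types had 1 without the filter (sli, at the lowest level) and 0 to 1 with 1 array left out. SakOE against DSas-4 had 1 after quantile normalization (NetB), without the filter (sli), with the mean of probe sets (PlexB) and in the fit on the compared strains (Sema1a), and 0 to 1 with 1 array left out (Sema1a without DSas-6 replicate 3). SakOE against DSas-6 had 3 without the filter (NetB and sli in addition), 2 in the fit on the compared strains, 2 with a variance trend (NetB in both) and 1 to 2 with 1 array left out. DSas-6 against DSas-4 had 1 in the fit on the compared strains. For the further guidance genes the same alternatives were applied after the data were seen. DSas-4 had 0 of them called without the filter, 1 with the mean of probe sets, 0 in the fit on the compared strains and 0 to 2 with 1 array left out. DSas-6 had 3 after median centring, 8 without the filter and 2 to 5 with 1 array left out, and SakOE had 1 to 4. Deviations of same-numbered samples of different strains correlated at a median r of -0.05 (-0.32 to 0.31), and those of other-numbered samples at 0.02 (-0.37 to 0.35). Taken over all strains, replicate numbers thus gave no sign of pairing. Pairing between particular strains was not tested. With the replicate block, 0 of the further guidance genes were called in DSas-4 and 3 in DSas-6. The difference of Sema1a in DSas-4 relative to OregonR had an adjusted p of 0.0634 with it, and the counts among the 4 genes were as reported. Over all tested genes, 53.5% of the calls in DSas-4 were higher (47.3% after median centring, 43.2% after quantile normalization), 34.7% in DSas-6 (43.2% and 45.4%) and 32.3% in SakOE (56.2% and 55.7%).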
